A study of Mus musculus with 12 samples.

Results

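The genes described here are those whose main transcript changed as mouse embryonic stem (ES) cells differentiated for 7 days: 11 genes, carrying 13 switching transcripts, of 2474 genes that were expressed highly enough to be judged. A gene was judged where its transcripts summed to at least 50 CPM (counts of a gene scaled to a library total of 1000000) in each of 12 libraries. A gene was taken as switching where the mean share of its counts given to 1 of its transcripts moved by at least 50 percentage points between day 7 and day 0, in the same direction in both genotypes. By this rule 0.445% of the judged genes switched. The day 7 and day 0 values chose these genes, so their changes over time are given as a description and were not tested. The rule set no threshold on differences between the genotypes within a day, and these were tested. It did ask for a change in the same direction in both genotypes, which limits how far their shares can differ. A lack of calls between genotypes among the switching transcripts is therefore not read as a result.

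The samples were 12 RNA-seq libraries of polyA RNA from female C57BL6/CAST hybrid ES cells, 3 libraries in each of 4 groups: SIRT7-KO at day 7, SIRT7-KO at day 0, WT at day 7 and WT at day 0. Day 0 cells were held with LIF, the cytokine that keeps mouse ES cells undifferentiated, and day 7 cells had been without it for 7 days. The SIRT7-KO libraries carry a knockout of Sirt7, a sirtuin deacetylase gene, per the labels, which do not give its kind or say whether the 3 libraries of a group came from separate clones or cultures. All p-values therefore measure only the spread between these libraries, which may be technical. The labels also hold a treatment entry, LIF or None, that follows replicate and genotype instead of the day. It thus does not match the use of LIF by day given above, and it did not enter the groups. As far as this entry follows genotype, its part in differences between knockout and wild type cannot be told apart from that of genotype.

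Library totals ran from 25190483 to 69079368 counts. Sirt7 had 26.2, 21 and 24.8 CPM in the day 7 libraries labelled knockout, against 10.02, 10.3 and 15.6 CPM in WT, and 19.7, 23.1 and 16.4 CPM at day 0 in those labelled knockout, against 12.4, 7.75 and 9.98 CPM in WT. Sirt7 counts were thus higher, not lower, in the libraries labelled knockout. Gene-level counts do not show whether the protein was lost, and the kind of knockout is not given. For this reason "knockout" or "KO" below means only that a library is so labelled. All 7 markers of undifferentiated ES cells were lower at day 7 than at day 0 in both genotypes, with summed levels of 304 to 312 CPM at day 7 against 6597 to 6760 CPM at day 0 in knockout, and of 273 to 293 CPM at day 7 against 6473 to 6602 CPM at day 0 in wild type. All 5 mesoderm and trophoblast markers were higher at day 7, with sums of 3508 to 3622 CPM against 15.5 to 16.8 CPM in knockout and of 4086 to 4505 CPM against 15.5 to 17.9 CPM in wild type. Of 5 markers listed for feeder fibroblasts, cells on which ES cells are often grown, 4 were higher at day 7, among them Col3a1, which was at 0 in every day 0 library, and Thy1 was lower, at 4.51 CPM against 24.8 CPM in knockout and 4.37 CPM against 21.6 CPM in wild type. The sums of the 5 were 1090 to 1123 CPM at day 7 against 28.9 to 30.1 CPM at day 0 in knockout, and 1341 to 1475 CPM against 21.4 to 28.3 CPM in wild type. The 3 neural markers were lower at day 7, and of 3 endoderm markers 2 were higher and Afp was at 0 throughout. The part of these cell types in the switches was not tested, and in these bulk samples a change of form within cells and a change in the mix of cells cannot be told apart.

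Most mouse genes can be read out as several transcripts, through different start sites, through exons that are kept or skipped by the spliceosome, or through introns that stay in the RNA. RNA-binding splicing regulators help decide which exons are kept, and their levels shift as pluripotent cells take on mesodermal or neural fates. A transcript that carries an early stop codon can be sent to nonsense-mediated decay, so that a change of form can also change how much protein a gene gives.

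The 11 genes have different known roles. Ckap5 and Tubgcp2 encode microtubule proteins, Dnm2 and Flna act at the membrane and the actin cortex, Fgfr1, Ptprs and Fat1 are cell-surface receptors or adhesion proteins, Mdm2, Tbx3 and Ankrd17 act in large part in the nucleus, and Fdps is an enzyme of the mevalonate pathway. They had a median of 9 annotated transcripts, with a range of 6 to 21, against a median of 5 among all judged genes. Of the 13 switching transcripts, 8 gained and 5 lost share by day 7, and 12 are annotated as protein coding. The 3 genes nearest to the threshold from above were Tbx3, Flna and Fat1, whose smaller change of the 2 genotypes was 52.3, 52.3 and 51.1 points. Just below it were Mast2, Usp4 and Sptbn1, at 49.7, 49.6 and 49.4 points.

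The sequences below are alternative coding exons in which the forms of 5 genes differ, read from the GENCODE M21 transcripts of GRCm38 and written 5′ to 3′ along the transcript. The first pair are the mutually exclusive exons of Dnm2, at chr9:21478899-21479037 and chr9:21480407-21480545 on the plus strand, of which a transcript carries one or the other. Both are 139 bases long and are identical at 95 positions, or 68.3%; capitals mark the 44 positions at which they differ.
Dnm2 upstream exon: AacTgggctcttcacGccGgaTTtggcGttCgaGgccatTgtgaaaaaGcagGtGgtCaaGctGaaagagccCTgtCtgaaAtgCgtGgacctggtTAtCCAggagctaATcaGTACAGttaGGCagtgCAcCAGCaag
Dnm2 downstream exon: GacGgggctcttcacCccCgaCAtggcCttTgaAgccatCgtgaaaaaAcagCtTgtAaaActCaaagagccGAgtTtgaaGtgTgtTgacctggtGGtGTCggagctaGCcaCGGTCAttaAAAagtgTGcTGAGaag

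The other set are coding exons in which a transcript that gained share by day 7 and one that lost it differ. In Tbx3 and Flna the exon is the whole difference in coding length between Tbx3-203 and Tbx3-201 and between Flna-202 and Flna-201. In Dnm2 it comes with the exchanged pair and a smaller further difference (coding lengths 2598 bases in Dnm2-202 and 2607 in Dnm2-211). In Ptprs it comes with 4 longer exons. Here the exon is in capitals and the 12 bases on each side, from the neighbouring exons of the same transcript, are in lower case. They lie at chr9:21490658-21490669 (plus strand) in Dnm2, chr5:119675243-119675302 (plus) in Tbx3, chrX:74232967-74232990 (minus) in Flna, chr17:56421833-56421844 (minus) in Ptprs and chr10:117695953-117696049 (minus) in Mdm2. The first 4, of 12, 60, 24 and 12 bases, keep the reading frame, and the Mdm2 exon of 97 bases does not.
Dnm2 exon of 12 bases: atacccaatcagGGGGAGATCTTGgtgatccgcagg
Tbx3 exon of 60 bases: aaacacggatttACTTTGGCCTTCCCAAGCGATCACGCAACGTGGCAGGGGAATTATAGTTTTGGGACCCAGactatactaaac
Flna exon of 24 bases: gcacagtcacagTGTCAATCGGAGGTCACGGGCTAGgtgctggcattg
Ptprs exon of 12 bases: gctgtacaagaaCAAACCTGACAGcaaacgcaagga
Mdm2 exon of 97 bases: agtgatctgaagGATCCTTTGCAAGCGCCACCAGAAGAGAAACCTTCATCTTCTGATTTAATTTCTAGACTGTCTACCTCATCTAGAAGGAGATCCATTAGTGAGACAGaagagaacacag

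**Figure D1:**
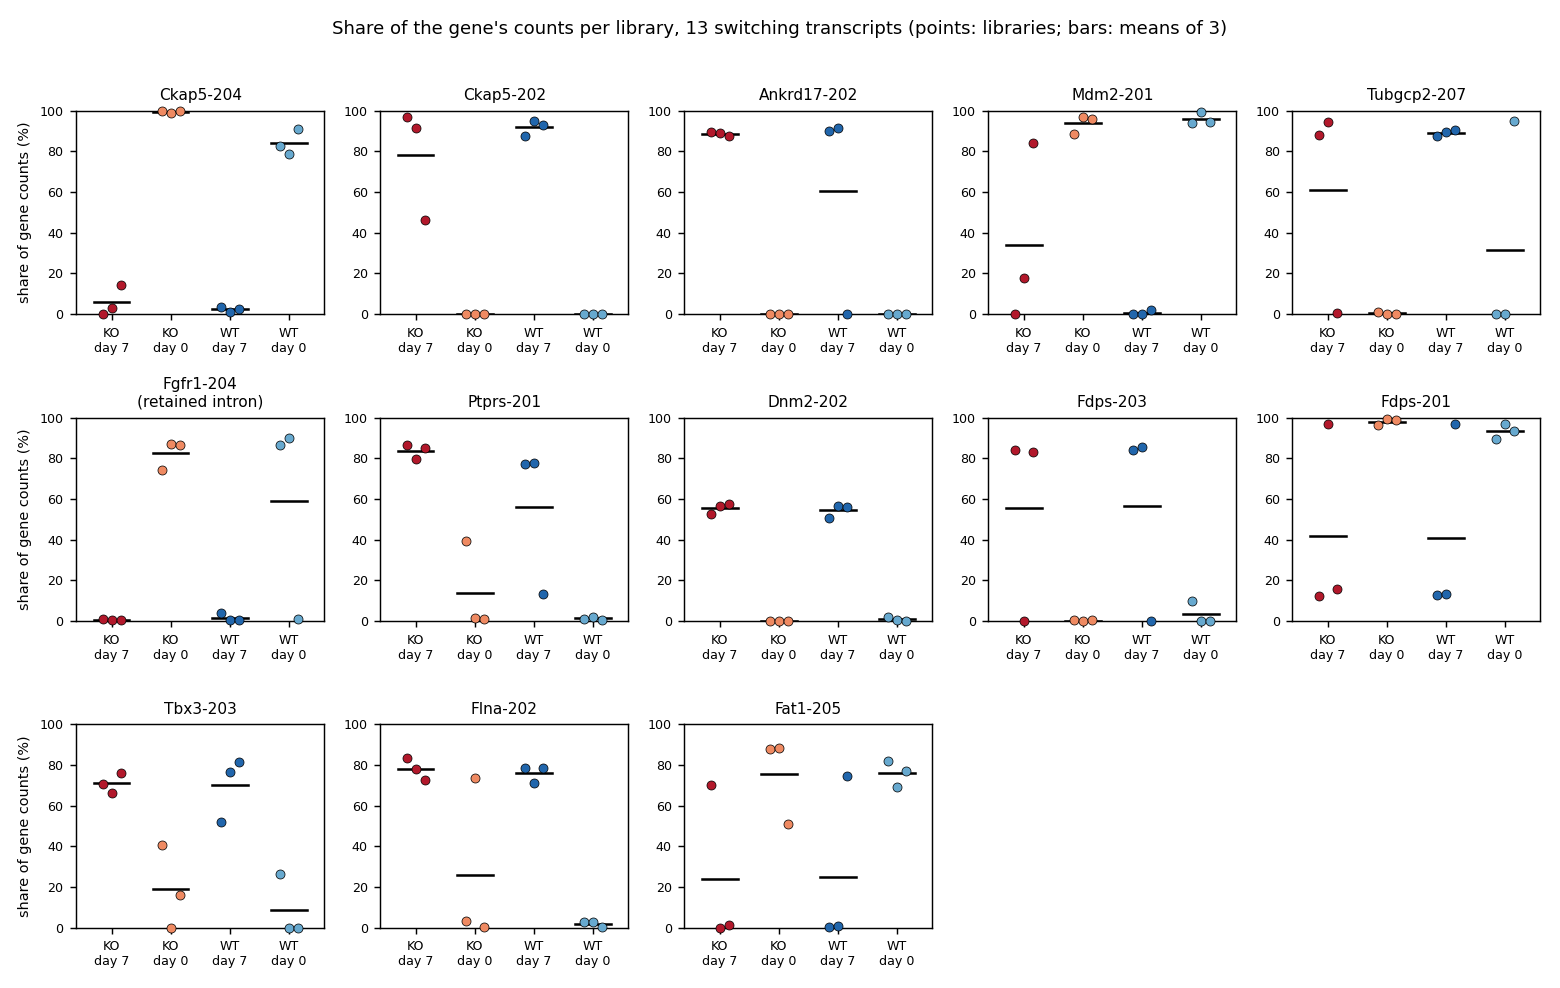
Share of the gene's counts (vertical axes, percent) held by each of the 13 switching transcripts in the day 7 and day 0 libraries of knockout (KO) and wild type (WT); points are libraries and bars are means of 3. Dnm2-202 lies at 50.5 to 57.4% in all 6 day 7 libraries and at 0 to 1.86% in all 6 day 0 libraries, whereas Fdps-203, Tubgcp2-207 and Ankrd17-202 each have single libraries at the level of the other day.

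The largest switch was in Ckap5 (chr2:91526762-91620664, plus strand), which encodes a microtubule polymerase needed for spindle assembly. Ckap5-204 held 0.014, 2.96 and 14.5% of the gene's counts in the day 7 knockout libraries, against 99.95, 98.6 and 99.8% at day 0. Wild-type libraries gave it 3.58, 0.834 and 2.37% at day 7, against 82.9, 78.7 and 90.9% at day 0. All 6 day 7 libraries thus lay below all 6 day 0 libraries. Ckap5-202 took its place, with 97.1, 91.6 and 46.4% in knockout and 87.6, 94.8 and 93.0% in wild type at day 7, against 0% in all 6 day 0 libraries. The forms encode the same protein, with a coding length of 6096 bases, and Ckap5-204 has 91 bases that Ckap5-202 lacks, all of them at the 5′ end except 2 at the 3′ end.

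Grouped by start site, transcripts that begin between chr2:91526762 and 91526978 held 5.85 ± 7.67% of Ckap5 counts at day 7 in knockout, against 99.6 ± 0.483% at day 0, and 2.27 ± 1.39% at day 7 in wild type, against 84.1 ± 6.18% at day 0 (SD, n = 3 each). Transcripts that begin at 91546320 to 91546333, downstream of these, held 94.1 ± 7.68% in day 7 knockout, 0% in day 0 knockout, 97.6 ± 1.43% in day 7 wild type and 15.7 ± 6.21% in day 0 wild type. In all reads, the switch of Ckap5 was therefore between annotated starts in every library. The separate estimates from reads divided by parental genome, given below, mostly did not show it. Because the forms share all but these bases, the split rests on reads over a small part of the RNA. The promoter of the upstream start, which held most counts at day 0, is shown from 250 bases before to 50 after the start (RefSeq, GRCm38.p6, chr2:91526512-91526811, plus strand). It has a GC content of 55.7% and 19 CpG dinucleotides, against medians of 52.7% and 7 over 32851 promoters of the same table and length.
Ckap5 upstream promoter: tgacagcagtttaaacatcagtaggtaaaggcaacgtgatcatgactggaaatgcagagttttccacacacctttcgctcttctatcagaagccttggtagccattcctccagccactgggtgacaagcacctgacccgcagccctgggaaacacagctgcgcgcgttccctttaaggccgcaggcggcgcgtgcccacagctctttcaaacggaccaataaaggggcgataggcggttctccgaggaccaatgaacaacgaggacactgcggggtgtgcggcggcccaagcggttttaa

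Tubgcp2 (chr7:139995955-140036669, minus strand) encodes a subunit of the gamma-tubulin complex, which nucleates microtubules. Tubgcp2-207 held 88.1, 94.4 and 0.369% in knockout at day 7, against 1.19, 0 and 0% at day 0. The wild-type values were 87.3, 89.6 and 90.7% at day 7, against 0, 0 and 94.8% at day 0. The day 7 knockout replicate 3 and the day 0 wild-type replicate 3 were on the side of the other day, so that the groups overlapped. Tubgcp2-201 was the main form in 4 of the day 0 libraries, and in day 0 knockout replicate 3 the retained-intron transcript Tubgcp2-203 held 88.8%. Annotated coding lengths are 2701 bases for Tubgcp2-207 and 2715 bases for Tubgcp2-201.

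Dnm2 (chr9:21424908-21507759, plus strand) encodes dynamin 2, the GTPase that pinches vesicles from the membrane. Dnm2-202 held 52.5, 56.3 and 57.4% of Dnm2 counts in knockout at day 7, against 0, 0 and 0% at day 0. Wild type gave 50.5, 56.5 and 56.0% at day 7, against 1.86, 0.519 and 0% at day 0. This was the switch with the least spread between libraries, and its largest SD in any group was 3.34 points. Dnm2-212 also held counts at day 7 alone, 25.7, 19.2 and 23.0% in knockout and 14.0, 20.4 and 20.7% in wild type, against 0% in all 6 day 0 libraries. At day 0 the counts were divided over Dnm2-211 and several others, among them the retained-intron transcripts Dnm2-207 and Dnm2-210, and none held more than 64.1% in any library.

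At the exon level, inclusion is the share of the counts of all transcripts spanning an exon that carry it. The upstream exon of the Dnm2 pair was included in 82.4, 82.6 and 86.0% at day 7 in knockout, against 27.3, 27.9 and 26.6% at day 0, and in 74.2, 81.1 and 82.4% at day 7 in wild type, against 3.18, 2.82 and 22.3% at day 0. The downstream exon took the rest in every library. The 12-base exon went the other way, with 18.3, 19.5 and 15.8% at day 7 in knockout, against 77.0, 80.0 and 82.4% at day 0, and 34, 19.9 and 19% at day 7 in wild type, against 97.7, 99.4 and 83.0% at day 0. Neither exon overlapped between the days in any library. The mutually exclusive pair is known from dynamin 2 genes of mammals and lies in the stalk region of the protein.

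**Figure D2:**
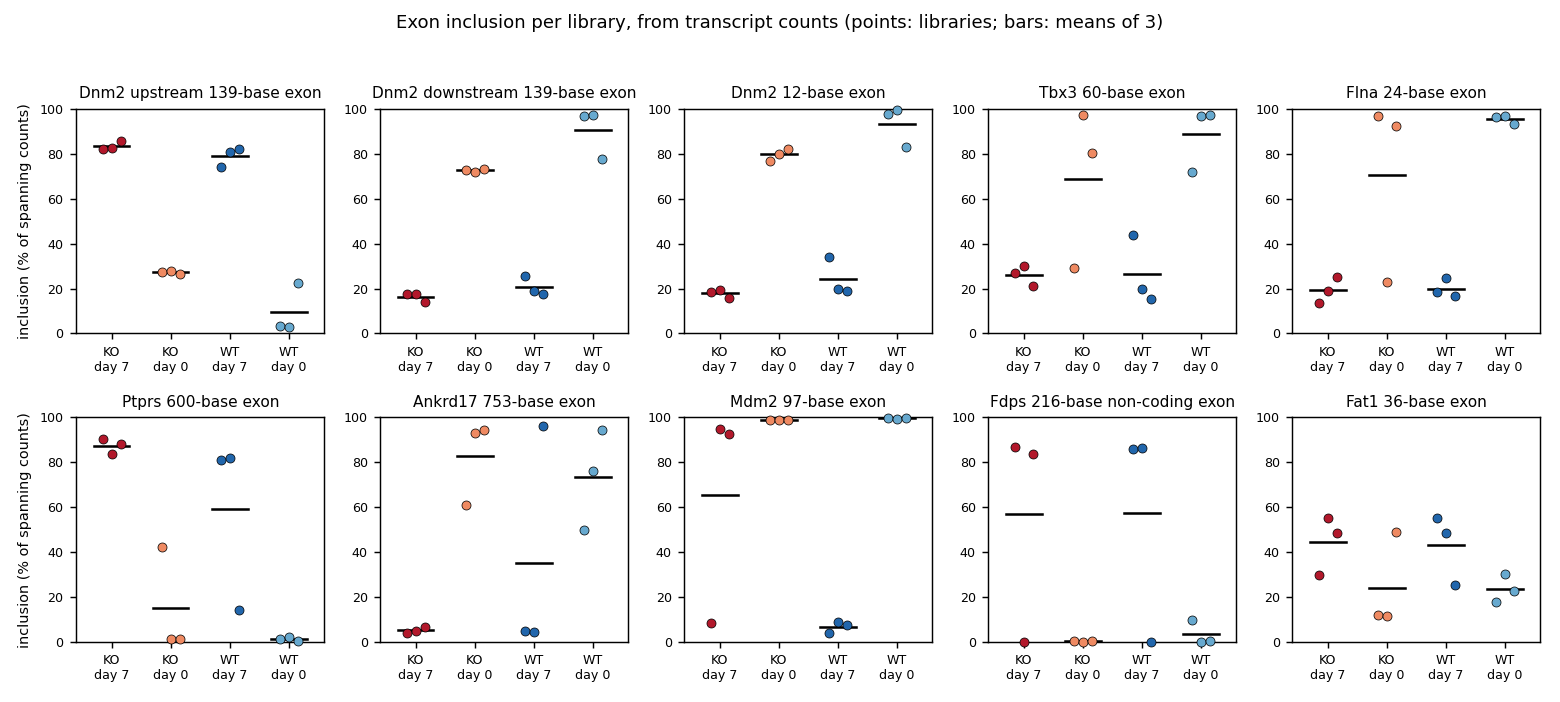
Inclusion of 10 alternative exons (vertical axes, percent of the counts of transcripts spanning the exon) in the day 7 and day 0 libraries of knockout (KO) and wild type (WT); points are libraries and bars are means of 3. The Dnm2 exons separate the days in all 12 libraries, with the upstream exon at 74.2 to 86.0% at day 7 and at 2.82 to 27.9% at day 0, while the Fdps and Ankrd17 exons have libraries on the other day's side.

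Flna (chrX:74223461-74249820, minus strand) encodes filamin A, which cross-links actin filaments and binds integrins. Flna-202, the form without the 24-base exon, held 83.7, 78.0 and 72.5% in knockout at day 7, against 3.21, 73.8 and 0.269% at day 0. In wild type it held 78.4, 71.3 and 78.8% at day 7, against 2.78, 2.81 and 0.371% at day 0. Day 0 knockout replicate 2 alone lay within the range of the day 7 libraries. The exon itself was included in 13.5, 19 and 25.3% at day 7 in knockout, against 96.7, 23.0 and 92.7% at day 0, and in 18.3, 24.5 and 16.8% at day 7 in wild type, against 96.4, 97.1 and 93.3% at day 0. In replicate 3 of both day 0 groups the transcript annotated for nonsense-mediated decay, Flna-213, held most counts, 77.8% in knockout and 83.1% in wild type. Bases found in only one of the forms make up 0.935% of Flna-202 and 0.541% of Flna-201. In the separate estimates from reads divided by parental genome, given below, mean inclusion of the exon was higher at day 7, not lower.

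Fgfr1 (chr8:25513654-25575718, plus strand) encodes a receptor for fibroblast growth factors, the signal that drives mouse ES cells out of the undifferentiated state. Fgfr1-204, annotated as a retained-intron RNA that starts late in the gene and has no coding sequence, held 0.696, 0.402 and 0.516% at day 7 in knockout, against 74.1, 86.9 and 86.6% at day 0. In wild type it held 4.02, 0.469 and 0.206% at day 7, against 86.7, 90.0 and 0.745% at day 0. It was the only switching transcript not annotated as protein coding. Day 0 wild-type replicate 3 had the day 7 pattern, with 89.6% in the coding transcript Fgfr1-202. That form held 86.3, 85.8 and 84.0% at day 7 in knockout, against 0, 3.66 and 0.941% at day 0, and 49.3, 83.8 and 91.1% at day 7 in wild type, against 4.62, 0 and 89.6% at day 0.

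Ptprs (chr17:56412426-56476483, minus strand) encodes a receptor tyrosine phosphatase that binds proteoglycans and is best known from growing axons. Ptprs-201, the long form, held 86.4, 79.5 and 85.2% in knockout at day 7, against 39.2, 1.24 and 1.17% at day 0. Wild type had 77.3, 77.9 and 13.5% at day 7, against 1.07, 2.13 and 0.382% at day 0. Day 0 knockout replicate 1 was intermediate, and day 7 wild-type replicate 3 lay below it. The long form has a coding length of 5721 bases and Ptprs-211, the main form of most day 0 libraries, one of 4491 bases. The difference is made of 4 consecutive exons of 306, 194, 118 and 600 bases and the 12-base exon shown above. The 4 exons moved as a block: in day 7 knockout the 600-base exon was included in 90.3, 83.9 and 88.0%, against 42.2, 1.3 and 1.24% at day 0, and in wild type in 81.1, 81.8 and 14.2% at day 7, against 1.13, 2.24 and 0.414% at day 0. In day 0 wild-type replicate 1 the 12-base exon was included in 96.2% while the 600-base exon was at 1.13%, and another transcript, Ptprs-202, held 89.3% there.

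Fat1 (chr8:44935447-45052257, plus strand) encodes a large cadherin of cell contacts. Fat1-205 held 70.2, 0.0853 and 1.46% at day 7 in knockout, against 88.0, 88.5 and 51% at day 0. Wild-type libraries gave it 0.15, 0.658 and 74.6% at day 7, against 82.2, 69.5 and 77.2% at day 0. One day 7 library of each genotype kept the day 0 form, and the groups overlapped. Fat1-201, with the same coding sequence of 13770 bases, held 0, 44.7 and 49.9% at day 7 in knockout, against 0, 0 and 0.18% at day 0, and 44.4, 50.6 and 0% at day 7 in wild type, against 0, 0 and 0% at day 0. Fat1-203, which shares its start at 44950208, downstream of that of Fat1-205, also held much of the rest. Its shares were 29.7, 55.0 and 48.2% at day 7 in knockout, against 11.7, 11.1 and 48.7% at day 0. In wild type they were 55.0, 48.4 and 24.3% at day 7, against 17.8, 30.1 and 22.6% at day 0. The coding exon of 36 bases that other forms carry moved less, to a mean inclusion of 44.4 ± 13.2% at day 7 in knockout, against 24 ± 21.4% at day 0, and of 43.0 ± 15.8% at day 7 in wild type, against 23.6 ± 6.28% at day 0 (SD, n = 3 each).

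Tbx3 (chr5:119670669-119684724, plus strand) encodes a T-box transcription factor of the naive pluripotency network that is later used in mesoderm and limb. Tbx3-203 held 70.7, 66.5 and 76.3% at day 7 in knockout, against 40.5, 0.0203 and 16% at day 0. The wild-type values were 52.0, 76.4 and 81.6% at day 7, against 26.5, 0.0253 and 0% at day 0. Each day 7 library was above each day 0 library, although the day 0 values were spread widely. The 60-base exon that Tbx3-203 lacks lies within the part of the gene that encodes the DNA-binding T-box, and forms with and without it are known in mouse and human. It was included in 27.1, 30.01 and 21.3% at day 7 in knockout, against 29.4, 97.2 and 80.2% at day 0, and in 44.1, 19.9 and 15.6% at day 7 in wild type, against 72.0, 96.9 and 97.3% at day 0. Day 0 knockout replicate 1 was at the day 7 level for the exon; there Tbx3-203 held 40.5%, and Tbx3-202, a further form without the exon, held 28.8%.

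Mdm2 (chr10:117688875-117710758, minus strand) encodes the ubiquitin ligase that holds p53 low. Mdm2-201, the full-length form, held 0.0755, 17.8 and 84.2% at day 7 in knockout, against 88.5, 97 and 95.8% at day 0. Wild type had 0.0967, 0.0284 and 1.92% at day 7, against 94.1, 99.1 and 94.6% at day 0. All day 7 values were below all day 0 values, but the 3 knockout libraries of day 7 each had another main form. Mdm2-209, which lacks the 97-base exon and is annotated for nonsense-mediated decay, held 81.8, 2.58 and 4.37% of the counts in day 7 knockout and 89.0, 82.7 and 85.8% in day 7 wild type, against 0% in all 6 day 0 libraries. In day 7 knockout replicate 2, Mdm2-202 held 68.2% instead. Skipping the exon leaves an annotated coding length of 486 bases, against 1467 bases in Mdm2-201. Its inclusion was 8.47, 95.0 and 92.5% at day 7 in knockout, against 98.7, 99.0 and 98.8% at day 0, and 3.93, 8.84 and 7.39% at day 7 in wild type, against 99.8, 99.5 and 99.7% at day 0.

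Ankrd17 (chr5:90227166-90366577, minus strand) encodes an ankyrin repeat protein. Ankrd17-202 held 89.4, 88.9 and 87.4% at day 7 in knockout, against 0, 0 and 0% at day 0. In wild type it held 89.9, 91.6 and 0% at day 7, against 0, 0 and 0% at day 0. Day 7 wild-type replicate 3 gave 88.4% to Ankrd17-201, the main coding form of day 0. In coding length the forms differ by an exon of 753 bases, included in 4.06, 4.9 and 6.73% at day 7 in knockout, against 61.0, 93.0 and 94.6% at day 0, and in 4.72, 4.32 and 96% at day 7 in wild type, against 49.6, 76.2 and 94.5% at day 0. Ankrd17-201 has 2401 bases in all that Ankrd17-202 lacks, so the forms also differ outside this exon. The separate estimates from reads divided by parental genome, given below, did not show this fall of the exon. At day 0 the retained-intron transcripts Ankrd17-208 and Ankrd17-212 together with Ankrd17-201 made up most of the counts.

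Fdps (chr3:89093588-89101959, minus strand) encodes farnesyl diphosphate synthase, which makes the precursor of cholesterol and of protein prenyl groups. Fdps-203 held 84.1, 0 and 82.8% at day 7 in knockout, against 0.322, 0.0259 and 0.231% at day 0. In wild type it held 84.2, 85.3 and 0% at day 7, against 9.7, 0 and 0.15% at day 0. Fdps-201 mirrored it, with 12.2, 96.9 and 15.7% at day 7 in knockout, against 96.4, 99.1 and 98.6% at day 0, and 12.9, 13.3 and 96.8% at day 7 in wild type, against 89.6, 96.8 and 93.6% at day 0. One library of each day 7 group thus had the day 0 form. The forms share a coding sequence of 1059 bases and differ in a non-coding exon of 216 bases near the 5′ end.

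For many of the 13 switching transcripts, replicates of a group lay far apart. The highest SD of the share within a group had a median of 42.9 points over these transcripts, against 3.23 points for the leading transcript of each judged gene. A range over 50 points within a group was found for 10 of the 13, against 399 of the 2474 leading transcripts, or 16.1%. Shares of 5 switching transcripts, from Ckap5, Dnm2, Mdm2 and Tbx3, did not overlap between the 6 day 7 and the 6 day 0 libraries. Counting any transcript of a gene, 7 of the 11 had one without overlap, against a background of 17.1% of judged genes; the rule used this contrast, so nothing is read from that count. Day 7 wild-type replicate 3, the library with the lowest total, was on the day 0 side for 4 genes (Ankrd17, Ptprs, Fdps and Fat1). Day 0 wild-type replicate 3 and day 7 knockout replicate 3 were on the other day's side for 2 genes each, 4 further libraries for 1 gene each, and the other 5 libraries for none. Whether depth had a part in this was not tested.

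Leaving out 1 library at a time gave 8 to 15 switching genes, and Ckap5 and Dnm2 met the rule in every one of these selections. The selections kept 7 to 11 of the 11 genes and brought in 0 to 6 others. Without day 7 wild-type replicate 1, and also without replicate 2, Ankrd17, Ptprs, Fdps and Fat1 no longer met it. In all, Fat1 was lost in 7 of the 12 selections, Tubgcp2 in 4 (without day 7 knockout replicate 1 or 2, or day 0 wild-type replicate 1 or 2), Fdps in 4 (also without day 7 knockout replicate 1 or 3) and Flna in 3 (without day 0 knockout replicate 1 or 3, or day 7 knockout replicate 1). Fgfr1 was lost in 2 (without day 0 wild-type replicate 1 or 2), Tbx3 in 2 (without day 0 knockout replicate 2 or day 7 knockout replicate 3) and Mdm2 in 1 (without day 7 knockout replicate 1).

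Gene levels were higher at day 7 than at day 0 in both genotypes for all 11 genes, as were those of 39.9% of the judged genes. The median log2 difference, day 7 over day 0, was 1.22 in knockout and 1.15 in wild type, against -0.12 and -0.12 over all judged genes. Fgfr1 had the largest difference, with 522, 536 and 534 CPM at day 7 in knockout, against 170, 158 and 137 CPM at day 0, and 488, 543 and 520 CPM at day 7 in wild type, against 135, 139 and 154 CPM at day 0. Flna reached 1695, 1872 and 1913 CPM at day 7 in knockout, against 657, 621 and 590 CPM at day 0, and 1026, 1529 and 1437 CPM at day 7 in wild type, against 623, 595 and 644 CPM at day 0. In level the day 7 and day 0 libraries did not overlap for either gene, whereas the shares of Fgfr1-204 and Flna-202 did. Tbx3 was nearly level in both genotypes, at 181, 177 and 188 CPM at day 7 in knockout, against 172, 181 and 153 CPM at day 0, and 165, 180 and 168 CPM at day 7 in wild type, against 138, 180 and 176 CPM at day 0.

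**Figure D3:**
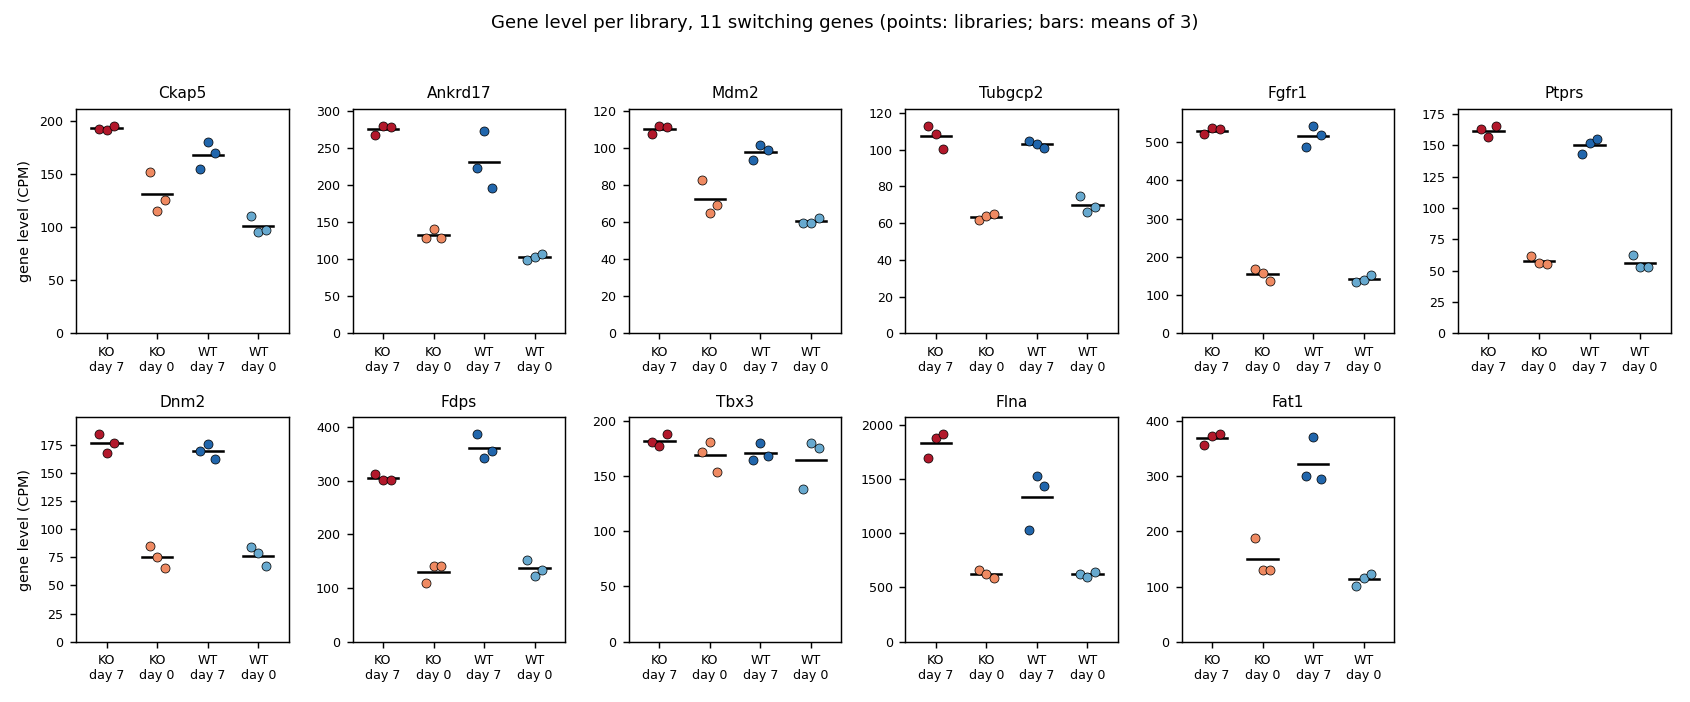
Gene level in CPM (vertical axes, linear, from 0) of the 11 switching genes in the day 7 and day 0 libraries of knockout (KO) and wild type (WT); points are libraries and bars are means of 3. The mean is higher at day 7 in both genotypes for every gene, with the smallest log2 difference for Tbx3, at 0.11 in knockout and 0.05 in wild type.

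The comparison of knockout with wild type asks whether the label of the cells goes with the form used or with the level of the gene. At the gene level, 0 of the 11 genes passed on either day by edgeR's quasi-likelihood test (Benjamini-Hochberg adjusted p at most 0.05 over 19235 genes), where the background was 0.13% of genes at day 0 and 0.026% at day 7. The unadjusted p was under 0.05 for 4 genes at day 0 and 2 at day 7. Log2 differences, knockout over wild type, ran from -0.16 to 0.36 at day 0 and from -0.32 to 0.39 at day 7, with medians of 0.02 and 0.04 over the 11 genes, against 0.00 and -0.02 over all genes tested. The smallest adjusted p at day 0 was that of Ckap5, with 152, 116 and 125 CPM in knockout, against 111, 95.3 and 97.7 CPM in wild type (log2 difference 0.34, SE 0.092, edgeR adjusted p = 0.227). DESeq2 called Ckap5 at day 0 and no other member on either day. At day 7 the smallest was that of Flna (log2 difference 0.39, SE 0.118, edgeR adjusted p = 0.465), higher in 3 of 3 knockout libraries.

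Transcript usage, the level of a transcript relative to the other transcripts of its gene, was tested for 79 transcripts of the 11 genes in the edgeR fit over 36002 transcripts. At day 0, 4 of the 79 passed, against 0.783% of all transcripts, and at day 7 none passed, against 0.214%. The unadjusted p was under 0.05 for 9 of the 79 at day 0 and 5 at day 7. Of the 13 switching transcripts, Dnm2-202 passed at day 0. Ckap5-202 and Ankrd17-202 were at 0% in every day 0 library, so no difference could be found for them on that day. By limma's test of usage, Dnm2-203 was the one member transcript called at day 0, where 266 of all 36002 were called. None was called at day 7, where 313 of all were. With day 0 libraries alone, edgeR called Ckap5-201, 1 of 53 member transcripts tested, against 84 of 24641 in all. With day 7 libraries alone it called Fgfr1-215, 1 of 77, against 96 of 29391 in all. Among the fits without 1 library, Tbx3-203 was called at day 0 without day 0 wild-type replicate 1, and Dnm2-204 at day 7 without day 0 wild-type replicate 3.

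Ckap5-201, which uses the downstream start, held 0, 0 and 0% of Ckap5 counts in day 0 knockout, against 16.9, 21.2 and 8.97% in day 0 wild type (edgeR adjusted p = 0.00431). The 3 knockout libraries all lay below the 3 wild-type libraries, and the call was kept in each of the 12 fits that leave out 1 library, but not by limma. Dnm2-202 held 0% in the 3 day 0 knockout libraries, against 1.86, 0.519 and 0% in wild type (edgeR adjusted p = 0.00289). This difference was under 1 point in the means, 1 wild-type library shared the knockout value, and 9 of the 12 fits without 1 library did not call it. No fold is given for either, since the knockout libraries are at 0.

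The other calls at day 0 each rested on 1 wild-type library. Ptprs-202 held 0% in the 3 knockout libraries, against 89.3, 0 and 0% in wild type (edgeR adjusted p = 0.0141), and its log2 difference of usage was -0.08 without wild-type replicate 1, with no call. Fgfr1-202 held 0, 3.66 and 0.941% in knockout, against 4.62, 0 and 89.6% in wild type (edgeR adjusted p = 0.0317), and the log2 difference was -0.52 without wild-type replicate 3, again with no call. At day 7 the smallest adjusted p of a switching transcript was that of Mdm2-201 (edgeR adjusted p = 0.085), whose shares were 0.0755, 17.8 and 84.2% in knockout, against 0.0967, 0.0284 and 1.92% in wild type. It was called in 2 of the 12 fits, without day 7 knockout replicate 1 and without day 7 wild-type replicate 3.

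The cells are hybrids, and the authors also deposited estimates made separately from reads assigned to genome 1, to genome 2 or to neither. The file does not say which parental strain is genome 1. Assigned reads made up 29.7 to 32.0% of these reads. The switches were mostly absent from the separate estimates. Among transcripts of genes with at least 20 reads in every library, the share moved in the same direction as in all reads in both genotypes for 3 of 12 transcripts in genome 1 reads, 3 of 6 in genome 2 reads and 8 of 13 in unassigned reads. A change of at least 50 points was seen for 0, 0 and 1 of them, the last being Mdm2-201 in unassigned reads, at 32.2 ± 41.4% at day 7 in knockout, against 90.5 ± 7.06% at day 0, and at 1.17 ± 1.83% at day 7 in wild type, against 93.8 ± 4.35% at day 0 (SD, n = 3).

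Dnm2 shows the difference at the exon level. The upstream exon of its pair, which separated the days in all reads, had an inclusion of 2.40 ± 2.15% at day 7 in knockout, against 1.44 ± 1.61% at day 0, and of 2.22 ± 3.85% at day 7 in wild type, against 0.615 ± 0.556% at day 0, in genome 1 reads (SD, n = 3 each). In genome 2 reads it was 1.51 ± 1.73% against 4.33 ± 6.06% in knockout and 1.28 ± 1.97% against 2.44 ± 3.28% in wild type. In unassigned reads it was 15.4, 67.6 and 84.9% at day 7 in knockout, against 0, 0 and 77.6% at day 0, and 22.2, 2.51 and 18.3% at day 7 in wild type, against 0, 11.6 and 0% at day 0. The day 7 and day 0 libraries thus overlapped in each read class in both genotypes, and the mean was higher at day 7 in genome 1 and unassigned reads and lower in genome 2 reads. The 24-base exon of Flna, which fell in all reads, had higher day 7 means in every read class and genotype. In unassigned reads it was at 77.3 ± 4.3% against 66.2 ± 56.2% in knockout and 64.3 ± 30.2% against 32.2 ± 55.5% in wild type. Other exons did move as in all reads in some classes. In unassigned reads the 97-base exon of Mdm2 was at 65.3% against 98.2% in knockout and 10.1% against 99.5% in wild type. Fgfr1-204 went the other way in assigned reads, with 52.1 ± 45.1% of genome 2 reads at day 7 in knockout, against 0% at day 0, and 76.2 ± 5.39% at day 7 in wild type, against 34.6 ± 49.3% at day 0. The 753-base exon of Ankrd17 had day 7 knockout means of 100, 99.5 and 98.8% in genome 1, genome 2 and unassigned reads, against 5.23% in all reads. Its day 7 wild-type means were 97.4, 98.0 and 94.7%, against 35.0% in all reads. The read classes cover different bases of a gene and were estimated separately. Why their values differ from those of all reads was not tested.

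**Figure D4:**
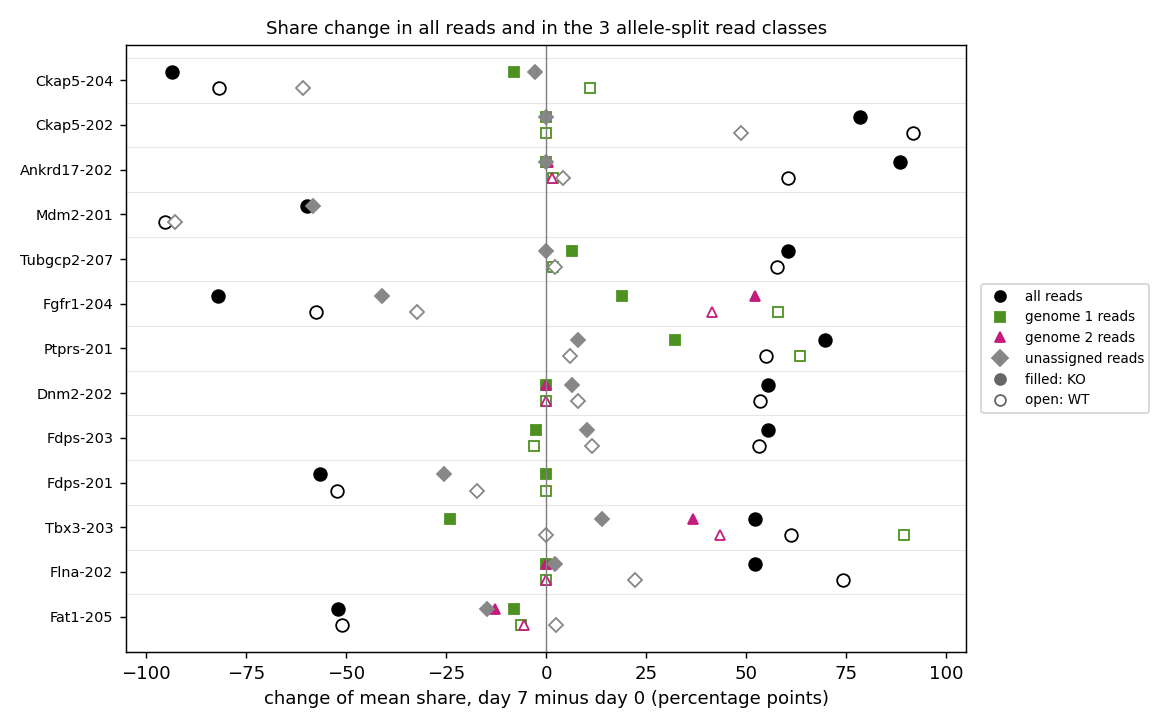
Change of the mean share, day 7 minus day 0 in percentage points (horizontal axis), of the 13 switching transcripts in all reads (circles) and in genome 1, genome 2 and unassigned reads, with knockout (KO) filled and wild type (WT) open; read classes of genes with fewer than 20 reads in a library are left out. All reads lie at least 50 points from 0 by the rule, and among the read classes Mdm2-201 in unassigned reads alone lies that far in both genotypes.

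Flna is the 1 X-linked gene of the 11, and in female ES cells 1 X chromosome is silenced during differentiation. Genome 2 gave 90.3, 88.9 and 88.8% of its assigned reads at day 7 in knockout, against 51.4, 51.5 and 57.3% at day 0, and 90.8, 91.2 and 83.2% at day 7 in wild type, against 47.8, 50.8 and 24.5% at day 0. All 6 day 7 libraries lay above all 6 day 0 libraries; this was not tested. Over all genes, genome 2 gave only 27.0 to 28.0% of assigned reads across the libraries, so an even split was not the background. Dnm2 stayed near an even split, with a mean of 49.6 ± 2.31% at day 7 in knockout, against 50.4 ± 2.39% at day 0, and of 47.2 ± 2.98% at day 7 in wild type, against 52.6 ± 6.79% at day 0 (SD, n = 3 each). Ckap5, Tubgcp2 and Fdps had under 1% genome 2 reads in every library.

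Genes known from the literature for alternative forms in stem cells, epithelial-mesenchymal change or muscle were listed for comparison. Of 51 listed, 20 were judged and 2 met the rule, Fgfr1 and Fat1. The largest same-direction change had a median of 6.54 points over the 20, against 0.61 points over all judged genes. Nearest to the rule among the others were Atp2a2 (a calcium pump of the endoplasmic reticulum), Fn1 (fibronectin), Actn1 (alpha-actinin) and Pdlim7 (an actin-associated protein), at 29.8, 25.5, 22.7 and 20.7 points.

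The regulators that could act on such exons were not members and were tested over time with edgeR. Of 81 splicing regulators listed, 80 were tested: 25 rose, 22 fell and 33 did not pass in knockout, and 30 rose, 21 fell and 29 did not pass in wild type. Over all genes 31.1% rose and 32.3% fell in knockout, and 32.9% rose and 32.1% fell in wild type, so that the shares called among regulators were near the background. Their median log2 change was -0.03 in knockout and 0.08 in wild type, against -0.02 and 0.01 over all genes tested.

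Mbnl2, a muscleblind protein that promotes differentiated splice forms, rose to 16.3 CPM at day 7 in knockout, against 2.40 CPM at day 0 (log2 change 2.70, SE 0.461, edgeR adjusted p = 0.000349). In wild type it rose to 13.9 CPM, against 0.538 CPM (log2 change 4.61, SE 0.52, edgeR adjusted p = 1.36e-05). Its relative Mbnl1, named after its values were seen, rose to 5.62 CPM at day 7 in knockout, against 2.21 CPM at day 0 (log2 change 1.24, SE 0.45, edgeR adjusted p = 0.0315), and fell to 2.80 CPM in wild type, against 12.4 CPM (log2 change -2.17, SE 0.452, edgeR adjusted p = 0.0014). The knockout call was lost without day 0 knockout replicate 1 or 2 and without day 7 knockout replicate 1 or 2, and the difference between genotypes was not tested. Mbnl3 did not pass in either genotype. Rbm20, a splicing regulator of cardiac muscle, rose by 2.75 (SE 0.293) in knockout and 3.0 (SE 0.295) in wild type on the log2 scale. The neuronal RNA-binding proteins Elavl3, Nova2 and Rbfox3 fell: Elavl3 by a log2 change of -4.72 in knockout and -4.69 in wild type, Nova2 by -3.25 and -3.06, and Rbfox3 by -3.13 and -3.10, each past an edgeR adjusted p of 0.05. Further listed regulators with known roles in neurons, named after their values were seen, were divided. Celf4 (log2 change -2.70 in knockout and -2.05 in wild type), Srrm4 (-1.68 and -1.82), Elavl2 (-1.69 and -1.90) and Nova1 (-0.88 and -0.77) also fell. Each of them passed an edgeR adjusted p of 0.05 in both genotypes. Others did otherwise. Ptbp2 rose (log2 change 1.63 in knockout and 1.82 in wild type, edgeR adjusted p = 6.31e-05 and 2.81e-05), and Elavl4, Celf3 and Srrm3 did not pass in either genotype. Celf2 rose in knockout (log2 change 2.24, edgeR adjusted p = 0.0155), but not without day 0 knockout replicate 2 or 3 or day 7 knockout replicate 3. In wild type it had a log2 change of 1.49 that did not pass (edgeR adjusted p = 0.0696) but passed without day 7 wild-type replicate 3. Rbm24, a muscle splicing factor, totalled 132 counts over the day 7 libraries against 2 at day 0 in knockout, and 161 against 5 in wild type, and rose in both (edgeR adjusted p = 0.000229 and 0.000592). Rbfox1 totalled 49 against 4 counts in knockout and 84 against 0 in wild type and rose in both (edgeR adjusted p = 0.0184 and 0.00197), but not in knockout without day 0 knockout replicate 1 or 3 or day 7 knockout replicate 3. Celf6 totalled 0 against 44 counts in knockout, where it fell (edgeR adjusted p = 0.0074), and 13 against 46 in wild type, where it did not pass (edgeR adjusted p = 0.136); the difference between genotypes was not tested.

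Of 37 polyadenylation and RNA decay factors tested, 12 rose, 11 fell and 14 did not pass in knockout, and 14 rose, 10 fell and 13 did not pass in wild type, again near the share over all genes. Among them Upf3b, which links exon junctions to nonsense-mediated decay, fell to 36.7 CPM at day 7 in knockout, against 117 CPM at day 0 (log2 change -1.75, SE 0.118), and to 34.0 CPM in wild type, against 121 CPM (log2 change -1.86, SE 0.119). Of the exon junction complex, Magohb (log2 change -2.19 in knockout and -3.11 in wild type) and Rbm8a (-1.06 and -1.06) fell, while Casc3, a further subunit, rose (0.98 and 1.16). The cleavage and polyadenylation factors Cpsf2 (0.79 and 0.85), Cstf2t (0.74 and 0.89) and Sympk (0.75 and 0.85) rose. All of these passed an edgeR adjusted p of 0.05 in both genotypes. Of the 11 Cpsf, Cstf and Sympk genes tested, 6 rose, 3 fell and 2 did not pass in each genotype. The 3 that fell, named after their values were seen, were Cpsf3 (log2 change -0.52 in knockout and -0.33 in wild type), Cpsf4 (-0.44 and -0.48) and Cstf2 (-0.48 and -0.43). Cpsf4 did not pass in knockout without day 0 replicate 2 or 3 or day 7 replicate 3, nor in wild type without day 0 replicate 2 or 3 or day 7 replicate 2, and Cstf2 did not pass in wild type without day 0 replicate 3. Smg6, the endonuclease of nonsense-mediated decay, had a log2 change of 0.70 (SE 0.29) in knockout that did not pass (edgeR adjusted p = 0.053; it passed without day 0 knockout replicate 1 or day 7 knockout replicate 3) and rose in wild type by 1.5 (SE 0.295).

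**Figure D5:**
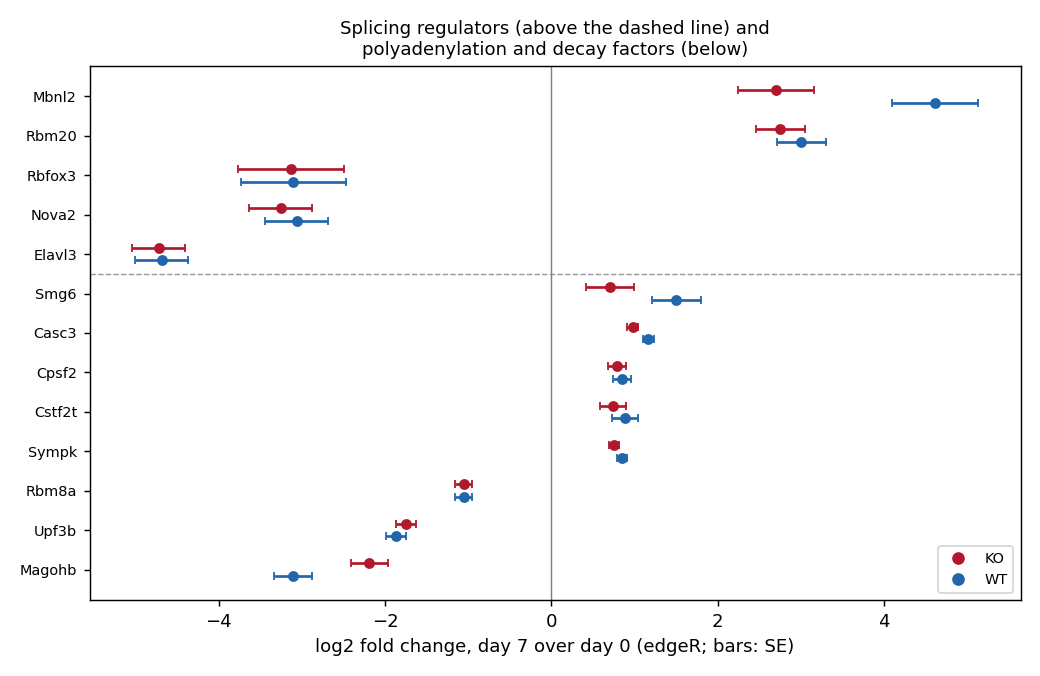
Log2 fold change, day 7 over day 0 (horizontal axis, edgeR, bars are SE), in knockout (KO) and wild type (WT) for the splicing regulators (above the dashed line) and the polyadenylation and decay factors (below it) with the largest change, leaving out genes with 3 or fewer counts over a group. Mbnl2 and Rbm20 lie above 2 and Rbfox3, Nova2 and Elavl3 below -3 in both genotypes.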

How the data were processed

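The authors deposited expected counts per gene and per transcript, for all reads and for reads divided by parental genome. The submitters' processing notes name StringTie 1.3.3, whose estimates these are taken to be, HISAT2 2.1.0, Trimmomatic 0.36 and DESeq2 1.32.0, and the genome as GRCm38 (mm10); which settings, annotation and strand rule were used is not given in the sources used here. Such estimated counts divide reads shared by several transcripts by a model, so a share rests on the bases that tell forms apart. These were few in some pairs and many in others. Bases not found in the paired form made up 0.935% of Flna-202 and 47.9% of Fgfr1-202. All values were whole numbers and were used as deposited.

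Of 142699 transcripts, 141469 matched GENCODE M21 by identifier and gave the gene, exons and sequence; the other 1230 held 0.251 to 0.393% of counts. Shares are of a gene's transcript counts per library; they are not divided by length. Replicate libraries differed by more than sampling noise (chi-square per degree of freedom 22.4 to 54.9).

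Tests used R 4.3.3 with edgeR 4.0.16 on all 12 libraries (filterByExpr, TMM, 1 coefficient per group): the quasi-likelihood test for genes and diffSpliceDGE for transcript usage, with Benjamini-Hochberg adjustment over all features and a threshold of 0.05. Alternatives were limma 3.58.1, DESeq2 1.42.0, a replicate block, other size factors, no filter, 1 day alone, each library left out, and other floors, thresholds and length scaling. The tests were checked on simulated data with a small spread between libraries. Most switching transcripts had a far larger spread, so this check does not cover them. The members and lists were chosen with earlier results of these data known. All members are named, with the 3 genes on each side of the threshold, members called between genotypes, the 8 genes of each regulator list with the largest mean log2 change, and the 4 known switch genes nearest to the rule. The deposited gene table divided by parental genome was not used.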

Additional observations from a re-analysis of the deposited data

How the results depend on the processing

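The number of switching genes, 11, was 31 with a floor of 25 CPM, 5 with a floor of 100 CPM, 28 with a change of 40 points, 2 with a change of 60 points and 7 with counts divided by transcript length (without Ptprs, Dnm2, Tbx3, Flna and Fat1), and 8 to 15 without 1 library. Calls of transcript usage, 282 at day 0 and 77 at day 7, were 84 at day 0 with that day's libraries alone and 313 at day 7 by limma, and 179 to 246 and 43 to 107 without 1 library of the day and 226 to 265 and 84 to 114 without 1 of the other day (over 1.5 times fewer without day 0 wild-type replicate 1 or 3, and without day 7 knockout replicate 2 or 3 or wild-type replicate 2). Calls of gene expression, 25 at day 0 and 5 at day 7, were 441 and 163 by DESeq2, 0 and 9 with that day's libraries alone (the edgeR fit of all 12 libraries had 2298 and 1573 genes at an unadjusted p under 0.05), and 20 to 55 and 6 to 13 without 1 library of the day (over 1.5 times more without day 0 knockout replicate 2, and without day 7 knockout replicate 1 or 3 or wild-type replicate 2). Without 1 library of the other day, expression calls were 6 to 15 at day 0, over 1.5 times fewer without each of the 6 day 7 libraries, and 5 to 8 at day 7, over 1.5 times more without day 0 knockout replicate 2 or 3. The causes were not tested. Calls among splicing regulators were 39 to 50 in knockout and 44 to 49 in wild type without 1 library, and those among polyadenylation and decay factors 21 to 26 in each. With the replicate block, usage calls were 89 at day 0 and 38 at day 7, and expression calls 6 and 2; of the members, Ckap5-201 and Dnm2-202 remained called at day 0. Correlations of the deviations of libraries with the same number were -0.03 to 0.12, and not every library correlated best with its own number, so the numbers were not taken to pair the libraries. For single genes and transcripts, 981 values kept their call, 37 lost and 10 gained it. Of these 1028 values 67 had the other sign than in the edgeR fit of all 12 libraries, none of them called in either fit.

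Limits: 3 libraries per group, whose origin is not given, set the precision. A share is an estimate whose error depends on the bases that differ between forms, and the deposited files give no error for it.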
